A study of Mus musculus with 2 samples.

Results

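A set of 10 enzymes that cleave thioester or ester bonds was followed in mouse skin: the acyl-CoA thioesterases Acot1, Acot2, Acot3, Acot4, Acot5, Acot7 and Acot8, the arylacetamide deacetylase Aadac, and the carboxylesterases Ces1d and Ces1f. These 10 genes, of 27594 genes or transcripts with a probe on the array, were found by current symbol, accession or alias. Ces1d carried the array name Ces3, and Ces1f the name AU018778. They were picked with their ratios in these data in view, so all values below are a description and none is a test. The transgenic animals were Pla2g2f-Tg/+ mice, labelled as overexpressing the secreted phospholipase A2 gene Pla2g2f, and they were set against littermate controls. Both genotypes were on a C57BL/6 background, 25 days old and fed a standard diet that the labels call LFD. Skin RNA of 4 mice was pooled per genotype, and the same comparison was hybridised on 2 two-colour arrays, with transgenic RNA in Cy5 on array 1 and in Cy3 on array 2. The labels name neither the promoter of the transgene nor separate pools for the arrays. With 1 pool per genotype the spread between mice was not measured, and no p-value is given.

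Fatty acids enter metabolism as esters of coenzyme A. Acyl-CoA synthetases make these esters, and acyl-CoA thioesterases split them back into free fatty acid and coenzyme A. Type I thioesterases (Acot1 to Acot6) are close relatives that work in the cytosol, in mitochondria or in peroxisomes, and several are known targets of the peroxisome proliferator-activated receptors (PPARs) in liver. Carboxylesterases of the Ces1 family and Aadac sit in the endoplasmic reticulum, where they hydrolyse ester and amide bonds of drugs and, for some members, stored triacylglycerol.

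Each value rests on 1 probe of 60 bases, so the probes of the measured genes are given here to show what was detected. Capitals mark the longest run of bases shared with the probe of a related gene, among 37 thioesterase and esterase genes with 49 probes.
Aadac: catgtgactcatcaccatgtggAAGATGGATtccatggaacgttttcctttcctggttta
Ces1d: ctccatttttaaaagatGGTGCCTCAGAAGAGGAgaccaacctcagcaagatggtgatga
Ces1f: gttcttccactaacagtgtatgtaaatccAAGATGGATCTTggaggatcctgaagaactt
Acot5: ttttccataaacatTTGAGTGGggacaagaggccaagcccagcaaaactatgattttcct
Acot1: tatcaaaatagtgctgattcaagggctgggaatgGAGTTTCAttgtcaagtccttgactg
Acot7: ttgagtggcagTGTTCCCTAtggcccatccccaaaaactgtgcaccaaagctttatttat
Acot8: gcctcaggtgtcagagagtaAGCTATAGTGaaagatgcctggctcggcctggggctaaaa
In mm8, the build of the array design, the Aadac probe lies on chromosome 3 at 60127892 to 60127951, plus strand. Those of Acot1 and Acot5 lie on chromosome 12 at 84907250 to 84907309 and at 84965605 to 84965664, both on the plus strand. Acot7 lies on chromosome 4 at 151115493 to 151115552, plus strand, and Acot8 on chromosome 2 at 164484065 to 164484124, minus strand. The Ces1f probe lies on chromosome 8 at 96145454 to 96145513, and the 60 bases of the Ces1d probe spread over 1286 bases at 96058877 to 96060162, both on the minus strand. An annotation of mm8 was not used here, so exons and untranslated regions are not assigned.

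Among the 11 probes of the 10 genes, the longest run shared with a relative was 8 to 12 bases for all but Ces1d. The Ces1d probe shared 17 bases in a row with a Ces1c probe. At the best ungapped offset it matched the Ces1h probe at 44 of 54 aligned bases, in capitals here.
Ces1h: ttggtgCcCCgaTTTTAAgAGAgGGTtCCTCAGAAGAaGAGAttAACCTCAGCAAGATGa
The relatives' own probes were dim. The Ces1h probe had processed signals of 110 in the transgenic channel and 90.8 in the control channel of array 1, not well above background in either, and both Ces1c probes were also not well above background. The Aadac probe shared a run of at least 15 bases with probes of 2 unrelated genes, Wfdc17 and H2-Q1. The Ces1d probe also shared such a run with a probe of Mfsd9, again an unrelated gene. Signals of these unrelated genes are not given here. Transcript sequences were not used here, so matches of a probe to the transcripts of near-identical Acot or Ces1 copies were not examined.

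A probe counted as measured when array 1 detected it well above background in either colour, as held for 13341 of 41167 probes, standing for 10456 genes or transcripts. The median log2 ratio of these genes was -0.0079, and the arrays differed by a median of 0.23. A gene was called when its ratio was at least 2-fold the same way on both arrays, which held for 390 higher and 176 lower genes, 5.41% in either direction. The 10 added control RNAs (spike-ins) gave a shift of 0.47 on the log2 scale; with both arrays shifted by that amount, 172 genes were higher and 473 lower. Pla2g2f itself had signals of 683 in the transgenic and 471 in the control channel of array 1 and log2 ratios of 0.54 and 0.34, which was not a call. Its mean of 0.44 was below the spike-in shift of 0.47, so it was not above 0 on that scale. The sources do not say whether the transgene holds the sequence of this probe.

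Of the 10 genes, 7 were measured by this filter, and 4 were higher in the transgenic pool: Ces1f, Aadac, Acot5 and Ces1d. None (0) was lower, and Acot1, Acot8 and Acot7 were not called. Over all measured genes 3.73% were called higher, but the 10 were selected on this same contrast, so nothing is read from the difference. The median log2 ratio of the 7 measured genes was 1.79, beside -0.0079 for all genes. Acot5 and Ces1f passed the filter only through their transgenic channel, so this median is no measure of the whole group. Acot2, Acot3 and Acot4 were not well above background in either channel.

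**Figure D1:**
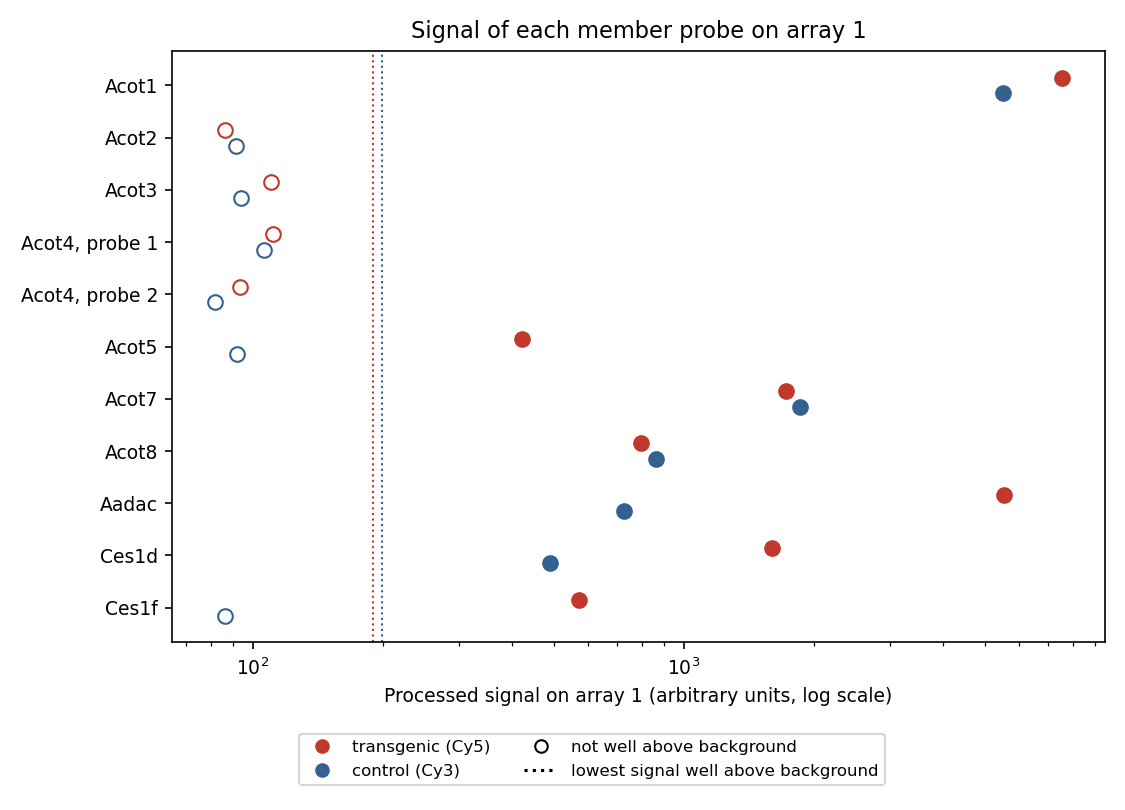
Processed signal of the 11 probes on array 1 (log scale, arbitrary units), transgenic channel in red above the control channel in blue. Filled points are well above background; Aadac, Ces1d, Ces1f and Acot5 show the wide gaps between channels, and the probes of Acot2, Acot3 and Acot4 lie left of the dotted lines at 190 (transgenic) and 199 (control), the lowest signals well above background.

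Aadac, an esterase named for deacetylating arylacetamide compounds, had the clearest difference. Its processed signal on array 1 was 5515 in the transgenic channel, against 726 in the control channel, and both were well above background. Array 1 gave a log2 ratio of 2.93 and array 2 one of 2.95, with a mean of 2.94 or 7.67-fold, and 22 genes had a higher mean. Both arrays thus gave nearly the same ratio, 0.027 apart, where the spot error model gave 0.34 for array 1.

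Ces1d, known as triacylglycerol hydrolase (TGH), takes part in mobilising stored fat in mouse liver and adipose tissue. It had signals of 1603 in the transgenic channel and 490 in the control channel, both well above background. Its log2 ratios were 1.71 and 1.86 on arrays 1 and 2, a mean 3.45-fold, the lowest of the 4 called genes. Among the 3 genes that were measured but not called, Acot1 came nearest, at 0.46 and 0.54.

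Ces1f, listed with the alias TGH-2, is a near neighbour of Ces1d. Its transgenic signal was 569, and its control signal of 86.3 was not well above background. The log2 ratios were 2.72 and 3.17, a mean of 7.71-fold. On array 1 this rests on the dim control value, and whether the program had replaced that value is not given here. With the dimmest well-detected signal, 199, in place of the control value, the ratio on array 1 was 2.86-fold. This and the other folds given with 199 as the control value are ratios of the program's processed signals on array 1. Array 2 has no channel signals here. These folds are no lower bounds, since some control signals not well above background exceeded 199, such as 272 for the sebaceous marker Fads2. Normexp correction gave Ces1f 1.57-fold on array 1, under the 2.86-fold above.

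Acot5, a peroxisomal thioesterase, was the only one of the 7 thioesterases to be called. Its signal was 421 in the transgenic channel, against 91.7 in the control channel, a value not well above background. The log2 ratios were 2.20 and 3.34. The arrays were 1.14 apart, the widest gap of the 7 measured genes, beside a median gap of 0.46 over 1870 probes dim in 1 channel of array 1. The measured mean was 6.82-fold, and the processed signals of array 1 gave at least 2.12-fold on the same basis. That bound holds for the program's processed signals only: normexp correction of the same spots gave 1.39-fold.

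The other thioesterases differed little or could not be measured. Acot1, the cytosolic type I enzyme for long-chain acyl-CoA, had signals of 7548 in the transgenic and 5484 in the control channel and a mean log2 ratio of 0.50, 1.41-fold. Acot7, a cytosolic enzyme abundant in brain, had 1725 in the transgenic and 1856 in the control channel. Its log2 ratios were -0.11 and -0.13, within the error model of the spot on array 1, 0.21. Acot8, a peroxisomal enzyme of broad chain-length range, had 797 in the transgenic and 861 in the control channel, and its log2 ratios of -0.11 and 0.07 fell on opposite sides of 0.

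The 3 unmeasured genes were all type I enzymes: Acot2 of mitochondria, and Acot3 and Acot4 of peroxisomes. Acot2 had signals of 86.1 in the transgenic and 91.3 in the control channel. Acot3 had 110 in the transgenic and 94.1 in the control channel. The probes of Acot4 had 112 and 93.2 in the transgenic channel and 106 and 81.6 in the control channel. No fold is given for these, since a difference was not detectable at this signal.

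**Figure D2:**
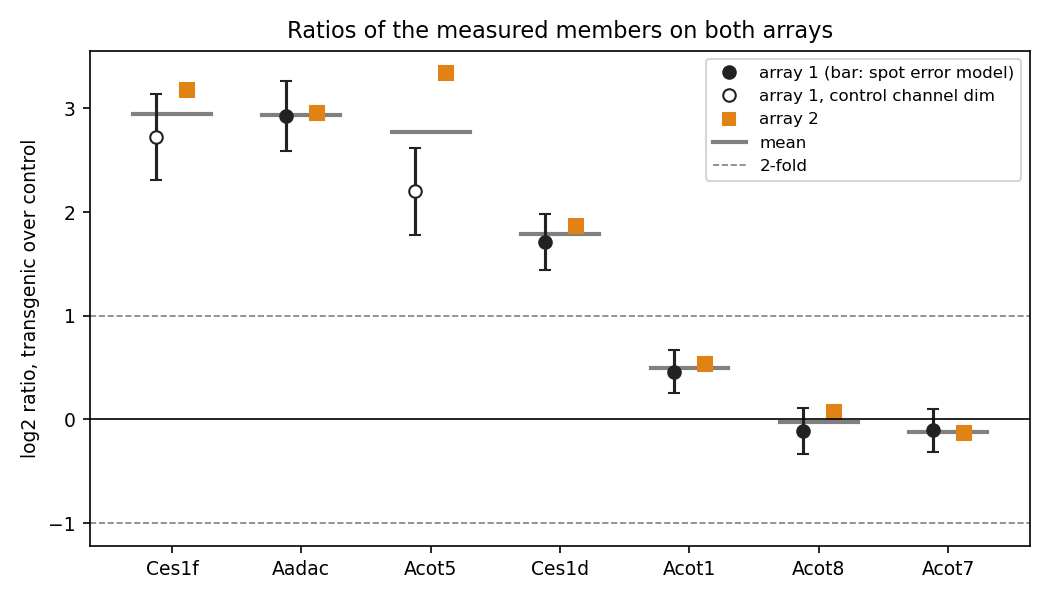
Log2 ratio, transgenic over control, of the 7 measured genes on array 1 (circles, with the error model of the spot) and array 2 (squares), with the mean as a grey line. Ces1f, Aadac, Acot5 and Ces1d lie above the dashed 2-fold line on both arrays, from 1.71 upwards, and Acot1, Acot8 and Acot7 lie between -0.13 and 0.54.

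The 4 calls differed in how well they stood up to another background correction. With normexp correction and loess applied to array 1, Aadac remained called, at 1.92 on that array, where 1.02% of all genes were called higher. Ces1d came to 0.80, Ces1f to 0.65 and Acot5 to 0.48 on array 1, so none of these 3 was called. Normexp adds an offset of 50 scanner units, and the net brightness (spot minus local background) of Acot5 was 26.6 units in the transgenic and 16.6 in the control channel. For Ces1f it was 36.0 units in the transgenic and 16.1 in the control channel, for Ces1d 95.3 and 42.7, and for Aadac 323 and 53.6. Even with no offset, these net values, not dye-normalised, give a lower ratio than the processed signals for each of the 4 genes.  After the shift to the spike-ins all 4 stayed called, with mean log2 ratios of 2.48 for Ces1f, 2.47 for Aadac, 2.30 for Acot5 and 1.32 for Ces1d, where 1.64% of all genes were called higher. Acot1 came to 0.03 on that scale, and Acot7 and Acot8 to -0.59 and -0.49.

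**Figure D3:**
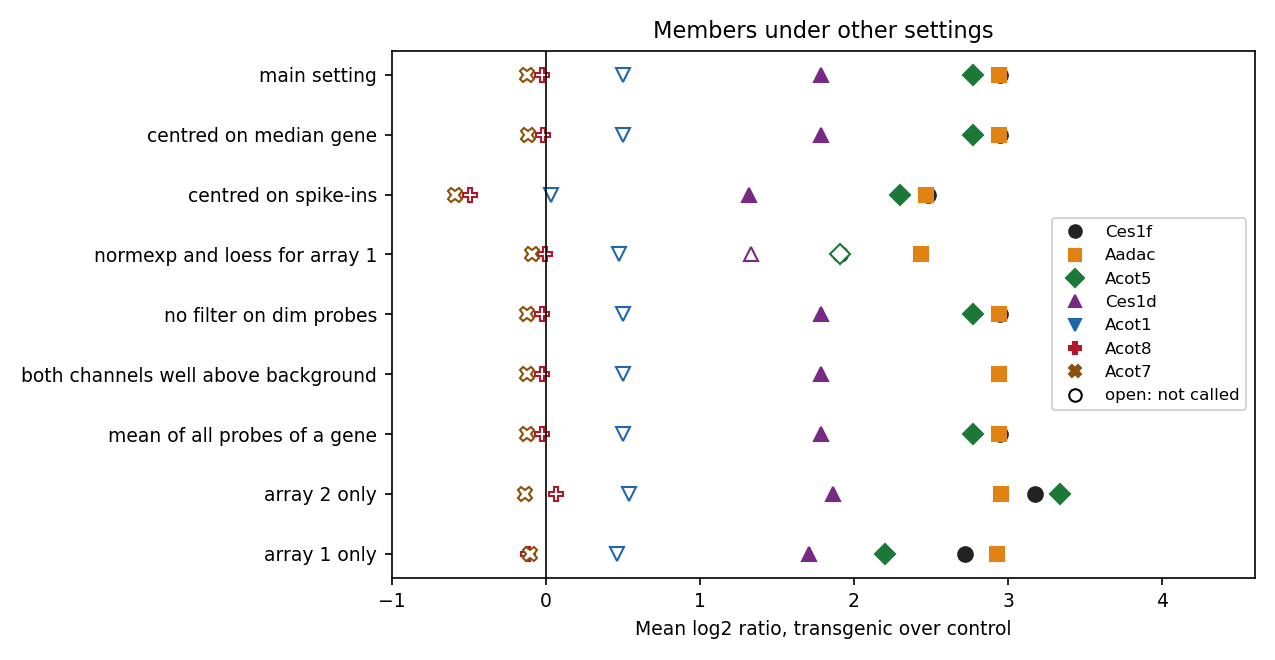
Mean log2 ratio of each measured gene (x axis) under the main setting and 8 others (rows). Filled symbols were called; Aadac is called in every row, whereas Ces1d, Ces1f and Acot5 (the last drawn over Ces1f) are open in the normexp row, and Ces1f and Acot5 are missing where both channels had to be well above background.

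Neighbouring copies were read side by side, since type I thioesterases and Ces1 genes each lie in a row on 1 chromosome. On chromosome 12 the probes follow in the order Acot2, Acot1, Acot4, Acot3, Acot5 and Acot6. Acot5 was called there, Acot1 and Acot6 were measured and not called, and the 3 others were dim. The brightest of 3 Acot6 probes had signals of 742 in the transgenic and 419 in the control channel, but log2 ratios of 0.82 and -0.07 on the arrays. A second Acot6 probe had 283 in the transgenic and 106 in the control channel, neither well above background.

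On chromosome 8 the order was Ces1b, Ces1c, Ces1d, Ces1e, Ces1f, Ces1g and Ces1h. Ces1d and Ces1f were the only 2 of these 7 genes with a probe well above background, and both were called. Ces1e, which lies between them, had 97.7 in the transgenic and 97.6 in the control channel. The signals of the 7 probes of Ces1b, Ces1c, Ces1e, Ces1g and Ces1h all lay between 87.5 and 110 in the transgenic channel and between 88.6 and 101 in the control channel.

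**Figure D4:**
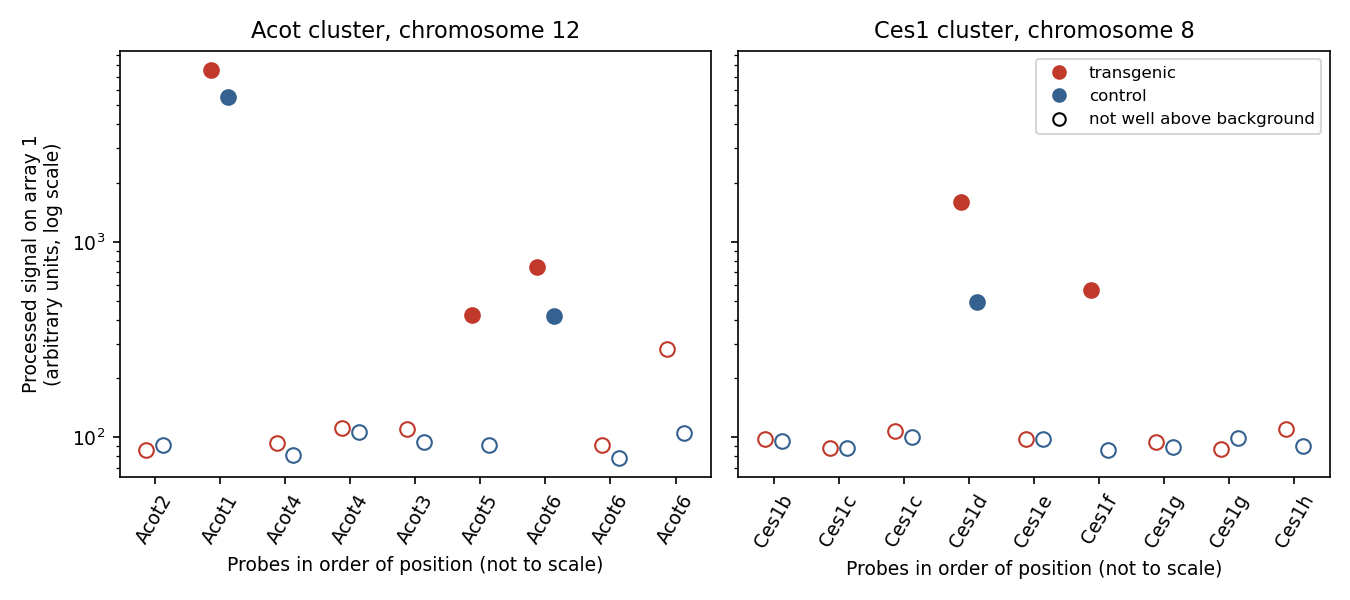
Processed signal on array 1 (log scale, arbitrary units) of every probe in the Acot row of chromosome 12 and the Ces1 row of chromosome 8, in order of position. Transgenic values are red and control values blue, open where not well above background; only Acot1, Acot5, 1 Acot6 probe, Ces1d and Ces1f have a filled point.

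Upstream sequence was examined for the half-site AGGTCA bound by PPARs and other nuclear receptors. RefSeq windows of 250 bases before the start (GRCm38.p6) were found for 8 of the 10 genes. None was found for Ces1d and Ces1f, which were both called. The half-site, on either strand, stood in 2 of these 8, Acot4 and Acot5, beside 13.8% of 27025 genes. Acot4 was not measured, and Aadac, called, had no match (0). The direct repeat AGGTCANAGGTCA and its looser form AGGNCANAGGNCA stood in none (0) of the 8, beside 0.037% and 0.333% of genes. The windows of Acot5, called, and of Acot1, not called and in the same row of genes, are shown as examples. The half-site, on the minus strand in Acot5, is in capitals.
Acot5 (chr12:84069074-84069323, plus strand): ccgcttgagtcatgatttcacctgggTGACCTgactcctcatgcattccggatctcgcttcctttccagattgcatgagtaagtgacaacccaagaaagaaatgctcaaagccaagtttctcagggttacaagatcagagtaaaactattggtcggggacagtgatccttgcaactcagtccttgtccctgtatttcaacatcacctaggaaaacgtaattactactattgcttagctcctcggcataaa
Acot1 (chr12:84009252-84009501, plus strand): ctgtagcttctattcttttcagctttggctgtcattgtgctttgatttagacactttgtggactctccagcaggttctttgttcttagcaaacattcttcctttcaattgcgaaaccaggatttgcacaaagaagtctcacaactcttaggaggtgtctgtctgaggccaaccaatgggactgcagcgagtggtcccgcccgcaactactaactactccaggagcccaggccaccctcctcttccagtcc
The match in Acot5 began 224 bases before the start and Acot1 had none (0) in this window. A match is a description of letters and shows no binding.

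Among relatives outside the 10 genes, few were measured and fewer were called. Of 17 genes listed as other thioesterases, 10 were measured, among them Mcat, which is an acyltransferase. Their median log2 ratio was -0.083, and 1 was called. That was Them4, a mitochondrial thioesterase, which was lower at -1.03 and -1.30. Over all measured genes 1.68% were called lower. Hibch, which cleaves a coenzyme A ester in valine breakdown, had the largest positive mean of that list, 0.78, and was not called. Of 21 other carboxylesterases and deacetylases, 2 were measured. Ces4a was called higher, with signals of 651 in the transgenic and 98.0 in the control channel, the control not well above background, log2 ratios of 2.73 and 3.67, and at least 3.27-fold on array 1. Nceh1, a cholesteryl ester hydrolase, lay at 0.77 and 0.72.

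The enzymes that make and carry acyl-CoA included more higher genes. Of 28 acyl-CoA synthetases and binding proteins, 17 were measured, 7 were called higher and 1 lower, where 3.73% of all genes were higher and 1.68% lower, and the median log2 ratio was 0.69. Slc27a4, a fatty acid transporter and acyl-CoA synthetase needed for the skin barrier in mice, had a mean log2 ratio of 2.47, and its control channel was dim, which gave at least 3.001-fold on array 1. Acss2, which makes acetyl-CoA, lay at 1.66, the long-chain synthetases Acsl1 and Acsl5 at 1.58 and 1.39, and Acsbg1 at 1.27. Acsm3, a medium-chain synthetase, was lower at -1.29, with its transgenic channel not well above background. At 1.5-fold on each array Acsl3 was lower too, where 3.8% of all genes were. At that size 9 of the 17 were higher, Acsl4 and Acss1 joining the 7, where 8.26% of all genes were. With normexp on array 1, Acsl1 alone stayed called higher, and after the shift to the spike-ins 2 did, Acss2 and Slc27a4.

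Neutral lipid hydrolases act on the same kind of substrate as Ces1d. Of 24 listed, 10 were measured and 3 were called higher, where 3.73% of all genes were, with a median of 0.83. After the shift to the spike-ins 2 were, Pnpla5 and Mgll, where 1.64% of all genes were. Mgll, the monoacylglycerol lipase, was 5.70-fold higher, with signals of 33672 in the transgenic and 5706 in the control channel. Pnpla5, a lipid droplet lipase, was at least 4.65-fold higher on array 1, and Pnpla2, the adipose triacylglycerol lipase, was 2.23-fold higher. The control channel of Pnpla5 was not well above background, so Pnpla5 dropped out where both channels were required. With normexp on array 1 Pnpla5 was not called, and Pnpla2 and Mgll were, where 1.02% of all genes were higher. At 1.5-fold on each array, 7 of the 10 were higher, where 8.26% of all genes were.

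PPAR target genes mostly lay above 0, and few passed 2-fold. Of 40 listed, 29 were measured and 27 lay above 0 on both arrays, as 35.3% of all genes did. The 3 called higher, where 3.73% of all genes were, were the lipid droplet proteins Cidec, 3.55-fold, and Plin2, 3.24-fold, and the peroxisome protein Pex11a, 2.64-fold. The median was 0.61, which came to 0.14 after the shift to the spike-ins. At 1.5-fold on each array 11 were higher, where 8.26% of all genes were, and from array 2 alone 5 passed 2-fold. Of 10 receptors and partners, 8 were measured and 2 were called, Fabp4, a fatty acid carrier, at 2.93-fold and Pparg at 2.22-fold. These 2 and Cidec are also adipocyte markers and are counted again among those below. Ppara and Ppard were not well above background in either channel.

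**Figure D5:**
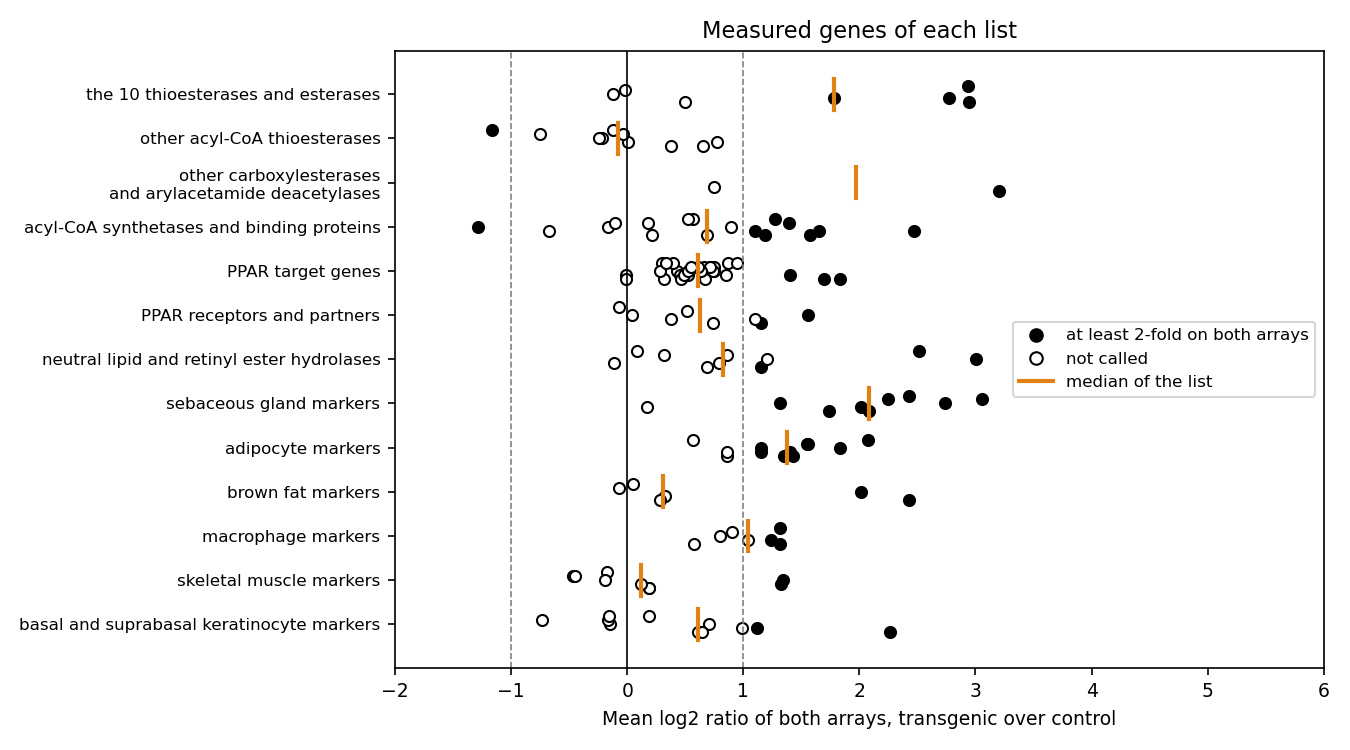
Mean log2 ratio of both arrays for every measured gene of each list, with called genes filled and the list median as an orange bar. The median of the other thioesterases lies at -0.083, and those of the sebaceous gland and adipocyte markers lie at 2.08 and 1.37.

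Many markers of lipid-rich cells were called higher too, where 3.73% of all genes were. After the shift to the spike-ins, where 1.64% were, 7 sebaceous and 4 adipocyte markers were called, with medians of 1.61 and 0.90. Of 17 sebaceous gland markers, 9 were measured and 8 were called higher, with a median log2 ratio of 2.08 and a summed signal on array 1 of 100126 in the transgenic and 25104 in the control channel. Cyp2e1, an oxidase, was at least 7.58-fold higher on array 1, Fa2h, a fatty acid hydroxylase, 6.69-fold, Cidea, a droplet protein, 5.39-fold, Soat1, which esterifies cholesterol, 4.74-fold, Scd1, a desaturase, 4.24-fold and the elongase Elovl3 4.03-fold. The defining markers Mc5r and Awat2 were not well above background. Nor was Fads2, with signals of 139 in the transgenic and 272 in the control channel, the other way from the called markers. Of 14 adipocyte markers, 12 were measured and 9 were called higher, with a median of 1.37 and summed signals of 378262 in the transgenic and 124276 in the control channel. Of the adipocyte markers, Cfd, Cidec, Fabp4 and Acvr1c kept their calls on the spike-in scale, and Adipoq and Plin1 did not, at mean log2 ratios of 0.96 and 0.93. Cfd was 4.22-fold, Adipoq 2.69-fold and Plin1 2.64-fold higher, and Acvr1c, dim in the control channel, at least 2.35-fold on array 1. Lep was not well above background. The part of these cells in the higher esterase signals was not tested, and in pooled whole skin more cells of a type and more RNA per cell cannot be told apart.

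Other cell types were checked in the same way, and most of their values depended on the scale. Over all genes 3.73% were called higher, and 1.64% on the spike-in scale. Of 9 macrophage markers, 7 were measured and 3 called higher, C1qa, Adgre1 and Lyz2, with a median of 1.04 and summed signals of 27708 in the transgenic and 11925 in the control channel. On the spike-in scale that median was 0.57 and 0 of the 7 were called. Brown fat markers had a median of 0.31 over 6 measured genes and summed signals of 37799 in the transgenic and 15649 in the control channel, and Ucp1, the defining gene, was not well above background. The 2 called, Cidea and Elovl3, also stand among the sebaceous markers. The brown fat median turned to -0.16 on the spike-in scale. Skeletal muscle markers had a median of 0.12 over 9 genes, with Myh2 and Myh1 called at 2.54-fold and 2.50-fold, and summed signals of 524977 in the transgenic and 451448 in the control channel. Myh4 (-0.17 and -0.76) and Pvalb (-0.51 and -0.40) lay below 0 on both arrays. On the spike-in scale the muscle median turned to -0.35 and neither call was left. All 11 keratinocyte markers were measured, with a median of 0.61, summed signals of 354645 in the transgenic and 234480 in the control channel, and Krt1 and Krt14 called at 4.79-fold and 2.17-fold. Dsg1a (-0.48 and -0.98) and Krt15 (-0.05 and -0.25) lay below 0 on both arrays, and on the spike-in scale the median was 0.14 and Krt1 alone was called. None (0) of the 7 hepatocyte markers with a probe, Alb and Apoa1 among them, was well above background in either channel, although Aadac and Ces1 genes are best known from liver.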

How the data were processed

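Skin RNA (500 ng, pooled from 4 mice per genotype) was hybridised to 2 two-colour Agilent arrays with the dyes exchanged, per the labels' protocols. The deposited scanner output of array 1 holds spot intensity values in both channels. Background subtraction and dye normalisation were done in Agilent Feature Extraction 9.5.1.1, per the file headers and the submitters' processing notes. The program's own ratio column differed from the ratio of processed signals at 24225 features, all of them with a surrogate in place of a dim value, so ratios of dim channels depend on this step. The deposited value table holds a log10 ratio of Cy5 over Cy3 per array, and for array 1 it equalled the ratio of the deposited intensity values at all 43790 features (within 1e-08). Array 2 has this column only here; its scale and direction follow from the dyes in the labels and a correlation of -0.579 with the other column, and its centring is unknown (column medians 0.0145 and -0.0243). The log10 error of each spot on array 1 is from the error model of the same program, per the file headers.

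Ratios were converted to log2, array 2 was turned to transgenic over control, and the mean of both arrays was used. Controls and 29 outlier spots were left out; 0 spots other than controls were saturated on array 1. Probes entered if either colour of array 1 was well above background, and the brightest probe stood for a gene. Names came from a RefSeq gene table of GRCm38.p6 for 24370 probes through their accession, 6300 through the symbol and 2425 through a synonym; the other 8072 keep the array's name. Over 10 probes printed 10 times, log2 ratios had a median SD of 0.09 (array 1) and 0.10 (array 2); precision is limited by having 2 arrays. With 1 pool per genotype no test across mice was possible, and slide and scan could not be tested as batches. The size rule was checked on simulated ratios in which every probe was bright in both channels. This checks the working of the rule and is no test of calls with a dim channel. Tools were Python 3.11.15, R 4.3.3 and limma 3.58.1 (normexp, offset 50, and loess).

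The members and lists were chosen with earlier results of these data known. Named were all 10 genes, up to 6 called genes of each other list by the size of the mean ratio, and the 2 with the largest absolute means where fewer than 2 were called; the others are counted only. Ppara, Ppard, Acsl3, Ppt2, Mcat, the other Acot6 and Ces1 copies, Acsl4 and Acss1 were named after their values were seen. So were Myh4, Pvalb, Dsg1a, Krt15 and the dim markers. The counts of cell type markers on the spike-in scale were added after seeing the data.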

Additional observations from a re-analysis of the deposited data

How the results depend on the processing

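The 4 calls (Ces1f, Aadac, Acot5 and Ces1d) were the same with arrays centred on the median gene or on the spike-ins. Other settings could not remove a call, since each of the 4 has 1 probe and passed 2-fold on both arrays. These were no filter on dim probes, all probes of a gene averaged, 1.5-fold, and either array alone. No other member joined the 4 in them. With both channels required to be well above background 2 were left of 5 measured, since Ces1f and Acot5 drop out. In that setting 2.64% of all genes were called higher. With normexp and loess on array 1, 1 was left, Aadac, where 1.02% of all genes were called higher. The median ratio of the measured members was 1.32 on the spike-in scale, 1.33 with normexp, 0.42 with no filter (10 genes) and 0.50 with both channels required (5 genes), and 1.71 to 1.86 from single arrays. No called member changed sign in any of these settings.

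Counts in related lists also moved. On the spike-in scale 2 acyl-CoA synthetases were higher and 2 lower, and 1 PPAR receptor or partner was higher. With normexp, 0 other thioesterases were lower, 0 other carboxylesterases higher, 1 synthetase higher and 0 lower, and 1 PPAR receptor or partner higher. With both channels required, 0 other carboxylesterases were higher and 0 synthetases lower. At 1.5-fold, 1 other thioesterase, 2 other carboxylesterases, 11 PPAR targets and 7 neutral lipid hydrolases were higher and 2 synthetases lower, with 9 synthetases higher. From single arrays the PPAR targets higher numbered 3 to 5 and the other thioesterases lower 1 to 2. Over all genes, normexp gave 107 higher (1.02%) and 56 lower, and the requirement on both channels 243 higher (2.64%) and 86 lower. On the spike-in scale 1.64% of all genes were higher, and at 1.5-fold 8.26%. No paired analysis was possible because the arrays were treated as 1 replicate; the labels do not say whether they carry separate pools. Low signal over background limits Acot2, Acot3, Acot4, Acot5 and Ces1f.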

Other observations

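The 3 probes for Acot6, the neighbour of Acot5, did not give 1 answer. One dim probe had log2 ratios of 1.42 and 1.25, with 283 in the transgenic and 106 in the control channel of array 1, neither well above background. The brightest probe had 0.82 and -0.07, and the remaining one 0.22 and 0.10 at signals of 91.6 in the transgenic and 78.8 in the control channel. Ppt2, a lysosomal thioesterase, also differed between the arrays, at -1.40 and -0.11, with 112 in the transgenic and 295 in the control channel.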
